A study of Mus musculus with 6 samples.

Results

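The enzymes and regulators that make fatty acids and cholesterol were examined in large-intestinal epithelium of germ-free mice that lack Hdac3 there and of mice that keep it. The set was a list of 36 genes linked to the SREBP transcription factors, chosen with earlier results of these data known. Of these, 15 belong to the fatty acid branch and 21 to the sterol branch. With 1 probe set per gene, the one with the highest mean signal among those naming exactly 1 gene, 35 of the 36 were measured, all 15 of the fatty acid branch and 20 of the sterol branch, out of 19533 genes in all. Acat2 was not analysed here. HDAC3ΔIEC mice (3 animals), in which Hdac3 is deleted in intestinal epithelial cells, were compared with HDAC3FF mice (3 animals), the floxed controls. All 6 mice were C57BL/6, all were germ-free and so lacked a microbiota, and live EpCAM+ cells of each were profiled on 1 Affymetrix array. The sources used here give no age, sex or Cre driver. The comparison asks how the transcriptome of these cells depends on HDAC3, a histone deacetylase of the NCoR and SMRT corepressor complexes, when no bacteria are present.

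Lipid synthesis starts from cytosolic acetyl-CoA. In the fatty acid branch acetyl-CoA is carboxylated to malonyl-CoA, built up to palmitate with NADPH as the reductant, and then lengthened by ELOVL elongases and desaturated by SCD and FADS enzymes. In the sterol branch acetyl-CoA units are joined through mevalonate and isoprenoids to squalene, which is closed to lanosterol and trimmed in many steps to cholesterol. SREBP-1 and SREBP-2, encoded by Srebf1 and Srebf2, are membrane-bound precursors that are carried to the Golgi and cleaved when sterols are low, and INSIG proteins hold them back in the endoplasmic reticulum when sterols are high. Their activity is therefore set largely after transcription. In the gut epithelium these pathways supply membrane lipids for rapidly renewed cells.

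The promoter windows of 4 members whose values are described below are shown to set the sequence around their starts beside those values. They are Hmgcs1, Insig1 and Lss of the sterol branch and Me1 of the fatty acid branch, from RefSeq on build GRCm38.p6, each 300 bases long, with 250 bases before the annotated gene start and 50 after it. Capitals mark a match to the core of the sterol regulatory element, TCACNCCAC, or a CCAAT box, read on either strand, so that CCAAT on the opposite strand appears as ATTGG. Hmgcs1 lies at chr13:119690101-119690400 on the plus strand, Insig1 at chr5:28071162-28071461 on the plus strand, Lss at chr10:76531355-76531654 on the plus strand, and the window of the Me1 start farther upstream at chr9:86695865-86696164 on the minus strand.
Hmgcs1: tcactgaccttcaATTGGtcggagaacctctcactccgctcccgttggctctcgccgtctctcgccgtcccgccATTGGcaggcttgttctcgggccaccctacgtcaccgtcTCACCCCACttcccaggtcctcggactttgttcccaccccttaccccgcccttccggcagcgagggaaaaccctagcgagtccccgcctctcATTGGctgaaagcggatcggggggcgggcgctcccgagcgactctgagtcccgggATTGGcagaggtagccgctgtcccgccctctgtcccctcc
Insig1: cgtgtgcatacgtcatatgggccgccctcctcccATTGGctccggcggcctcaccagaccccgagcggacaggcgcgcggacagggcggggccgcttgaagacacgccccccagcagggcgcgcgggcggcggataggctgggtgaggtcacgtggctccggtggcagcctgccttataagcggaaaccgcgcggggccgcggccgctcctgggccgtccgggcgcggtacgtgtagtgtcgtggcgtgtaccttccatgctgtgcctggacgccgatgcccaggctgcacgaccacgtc
Lss: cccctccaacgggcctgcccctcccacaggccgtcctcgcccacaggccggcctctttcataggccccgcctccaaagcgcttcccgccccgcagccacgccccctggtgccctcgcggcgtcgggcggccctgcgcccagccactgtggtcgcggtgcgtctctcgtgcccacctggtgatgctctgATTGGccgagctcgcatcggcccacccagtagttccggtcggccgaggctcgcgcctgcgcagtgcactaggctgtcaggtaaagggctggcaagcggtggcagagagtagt
Me1: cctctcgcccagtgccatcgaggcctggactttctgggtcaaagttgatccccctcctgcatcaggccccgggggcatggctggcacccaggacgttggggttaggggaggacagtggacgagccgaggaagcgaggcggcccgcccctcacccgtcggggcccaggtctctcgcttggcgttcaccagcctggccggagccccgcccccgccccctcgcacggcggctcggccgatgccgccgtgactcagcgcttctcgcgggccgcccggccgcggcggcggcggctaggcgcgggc
Hmgcs1 held 4 CCAAT boxes and the 1 sterol regulatory element core in capitals here, Insig1 and Lss held 1 CCAAT box each, and the Me1 window held neither; a second Me1 window, not shown, held 1 CCAAT box.

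Windows were available for 28 of the 35 measured members, 12 of the fatty acid and 16 of the sterol branch. The motif shares leave out Scd1, Scd2, Fads1, Fdps, Fdft1, Sqle and Stard4, which had no window. A gene counted as holding a motif if any of its windows did. A CCAAT box, the core letters of the NF-Y site, was present in 16 of the 16 sterol branch genes (100.0%) and in 9 of the 12 fatty acid branch genes (75.0%), against 41.7% of the 15548 measured genes with a window. The GC box GGGCGG was found in 15 sterol branch genes (93.8%) and 7 fatty acid branch genes (58.3%), against 53.0% of measured genes. TCACNCCAC was found in 1 gene of each branch, Hmgcs1 and Mlxipl, against 1.40% of measured genes. The palindromic E-box CACGTG was found in 4 sterol branch genes, Dhcr7, Hsd17b7, Insig1 and Sc5d (25.0%), and in Elovl5 and Mlxipl of the fatty acid branch (16.7%), against 9.49% of measured genes. Both strands were searched for each motif, overlapping matches of different motifs were all counted, and a match describes the letters of the window only.

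Signals are the deposited log2 values, and a difference is the mean of the HDAC3ΔIEC arrays minus the mean of the HDAC3FF arrays on that scale. With 3 arrays per group, their number limits the precision of every value. Over the 6 arrays together, all 35 members had a mean signal above the median of all genes, from the 52.2nd to the 97.8th percentile. On the HDAC3FF arrays alone Acacb averaged 5.12, under the array medians of 5.30 to 5.35. Me1 read 5.20 and 5.25 on HDAC3FF replicates 1 and 3, also under those medians. Hdac3 itself read 6.58, 6.22 and 6.00 on the HDAC3ΔIEC arrays, against 6.96, 7.36 and 7.04 on the HDAC3FF arrays, a difference of -0.86 ± 0.17 (SE). It missed the threshold (limma adjusted p = 0.0937; exact two-sided permutation p = 0.1, the smallest that 3 against 3 arrays allow). Where the probes lie relative to the deletion is unknown, and any outside it would not report on it. HDAC3ΔIEC replicate 3 stood apart from the other 5 arrays in sex-linked transcripts. Its Xist signal was 4.63, against 9.84 to 10.62 on the other 5 arrays, and its Y-linked genes Eif2s3y, Kdm5d and Uty read 8.39, 7.32 and 6.83, where no other array exceeded 3.67 for any of them. Results are therefore also given without that array. Epcam, whose protein was used to sort the cells, and Vil1, which encodes the microvillar protein villin, had overlapping groups, with differences of -0.06 ± 0.10 (SE) and 0.18 ± 0.13. Of the 12 epithelial markers none passed, but 5 had an unadjusted limma p under 0.05, against 11.2% of all genes. Each of these 5 had groups that did not overlap, but picking by that p favours such genes. The 16.2% of all genes with groups apart is therefore not a like share. Car1 of the same list, not picked by that p, also had groups that did not overlap, on the higher side in HDAC3ΔIEC. The keratin genes Krt18 (0.53 ± 0.16, SE), Krt20 (0.41 ± 0.16), Krt19 (0.30 ± 0.09) and Krt8 (0.26 ± 0.08) were on the higher side in HDAC3ΔIEC, and Slc26a3, the chloride and bicarbonate exchanger of surface colonocytes, was on the lower side (-0.44 ± 0.08). The part of these markers in the members' values was not tested.

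Over both branches 2 of the 35 members rose in HDAC3ΔIEC, both of the fatty acid branch, none fell, and 33 did not pass. Without HDAC3ΔIEC replicate 3 neither passed, and each passed in only some of the fits that left out 1 array (Scd1 in 2 of 6, Me1 in 3 of 6). The 2 genes were Scd1, which encodes a stearoyl-CoA desaturase that makes monounsaturated fatty acids, and Me1, which encodes cytosolic malic enzyme, a source of NADPH. Over all genes 0.369% were called higher and 0.333% lower by the same rule (limma with Benjamini-Hochberg adjustment over 19533 genes, adjusted p under 0.05). Differences were positive for 28 of the 35 members, against 53.5% of all genes, and the median difference was 0.29, against 0.01 over all genes. The HDAC3ΔIEC values all lay above the HDAC3FF values for 10 members and below them for none, where 8.45% of all genes stood apart in the higher and 7.7% in the lower direction. Because the members were chosen with earlier results of these data known, these shares are a description and no test of the list. In whole-population RNA, a larger share of cells expressing a gene and more RNA per cell cannot be told apart.

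**Figure D1:**
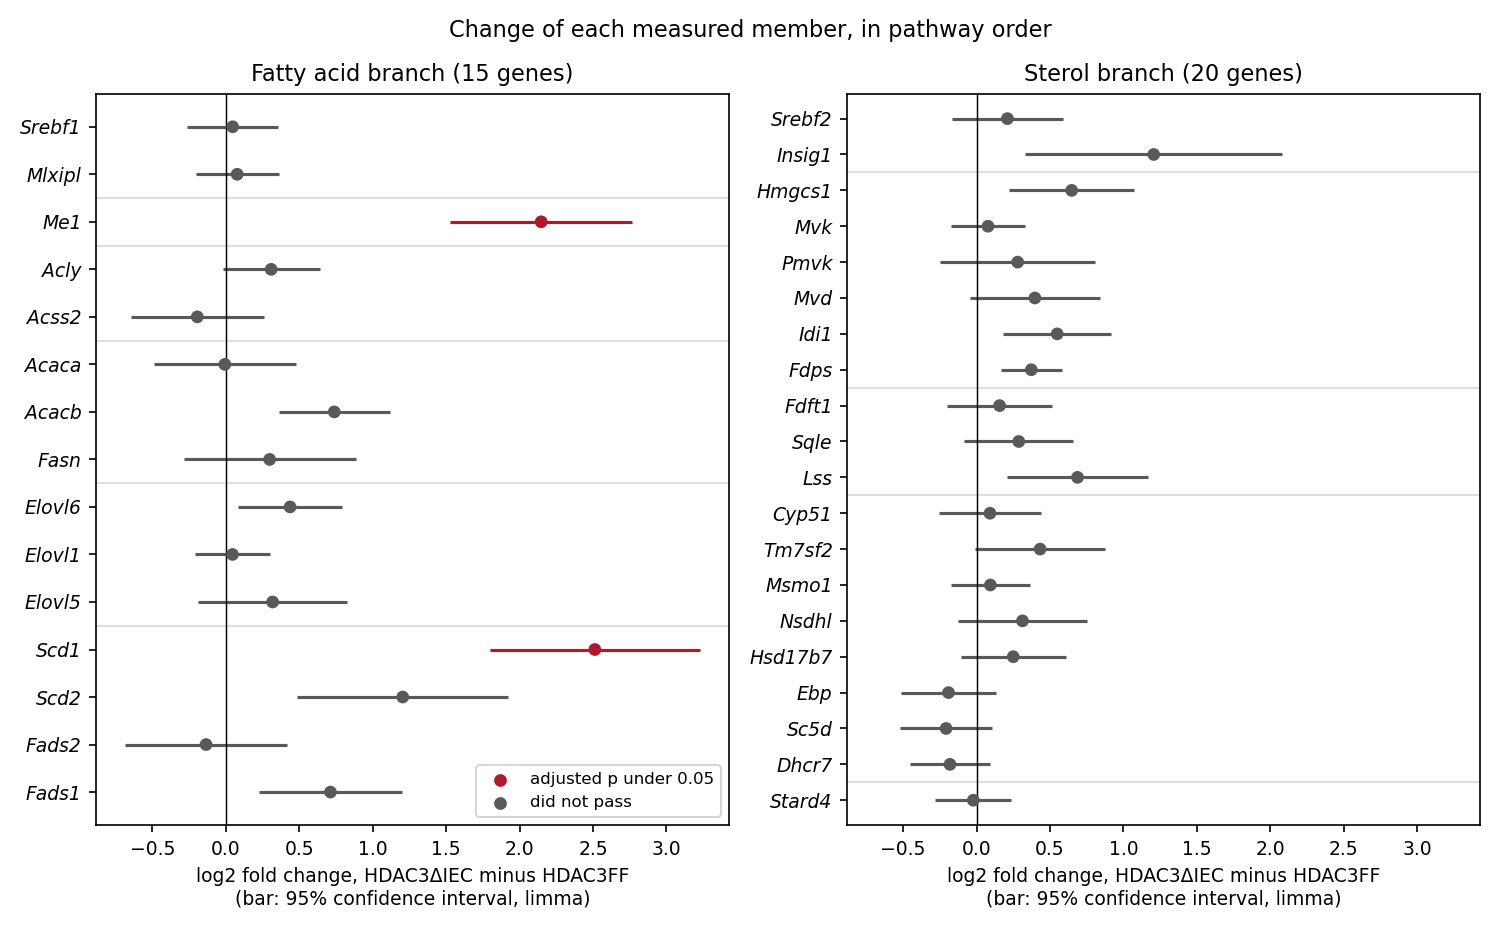
Difference in log2 signal, HDAC3ΔIEC minus HDAC3FF, of each measured member in pathway order, for the fatty acid branch on the left and the sterol branch on the right. Points are means of 3 arrays per group, bars are 95% confidence intervals from limma, and grey lines part the steps; Me1 and Scd1 are the 2 genes that passed, at 2.15 and 2.51.

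The transcription factor genes at the head of the fatty acid branch were near equal in the groups. Srebf1, which encodes SREBP-1, read 7.11, 7.27 and 6.84 in HDAC3ΔIEC, against 6.88, 7.06 and 7.14 in HDAC3FF. Mlxipl, which encodes the glucose-responsive factor ChREBP, read 7.21, 6.88 and 6.79, against 6.83, 6.93 and 6.88 in HDAC3FF. The groups overlapped for both genes, and the 95% intervals of their differences were -0.26 to 0.35 for Srebf1 and -0.20 to 0.36 for Mlxipl.

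Among the genes that supply acetyl-CoA and NADPH, Me1 was set apart from the others by its size. Me1 read 6.96, 7.82 and 7.85 in HDAC3ΔIEC, against 5.20, 5.75 and 5.25 in HDAC3FF. The lowest HDAC3ΔIEC array was thus more than 1 log2 unit above the highest HDAC3FF array, and the rise was 4.43-fold, 2.15 ± 0.26 (SE) on the log2 scale (limma adjusted p = 0.0276), the 22nd largest of all genes. Acly, which encodes ATP citrate lyase, the main enzyme releasing acetyl-CoA from citrate, read 8.73, 8.51 and 8.22, against 8.15, 8.30 and 8.08, with 1 HDAC3ΔIEC array under the highest HDAC3FF array (0.31 ± 0.14, SE, adjusted p = 0.481). Acss2, which makes acetyl-CoA from acetate, a major product of gut bacteria, read 7.29, 7.06 and 6.74, against 7.30, 7.49 and 6.88, and did not pass either (-0.19 ± 0.19, SE, adjusted p = 0.819).

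Of the 3 genes for the steps from acetyl-CoA to palmitate, none passed. Acaca, which encodes the cytosolic enzyme that feeds synthesis, read 6.77, 6.85 and 6.18 in HDAC3ΔIEC, against 6.72, 6.80 and 6.30 in HDAC3FF, and the groups overlapped fully. Acacb, which encodes the carboxylase at the mitochondrial outer membrane whose malonyl-CoA restrains fatty acid entry into mitochondria, read 5.62, 6.12 and 5.84, against 4.88, 5.31 and 5.18. Its groups did not overlap, but its difference of 0.74 ± 0.16 (SE) did not pass (limma adjusted p = 0.114). Fasn, the fatty acid synthase, read 7.73, 8.04 and 7.53, against 7.44, 7.97 and 6.99, with SDs of 0.26 in HDAC3ΔIEC and 0.49 in HDAC3FF and an interval of the difference from -0.29 to 0.89.

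Of the elongases, Elovl6, which lengthens palmitate to stearate, had groups that did not overlap. Its signals were 9.19, 9.56 and 9.27 in HDAC3ΔIEC and 8.63, 8.97 and 9.10 in HDAC3FF (0.44 ± 0.15, SE, adjusted p = 0.315). Elovl5, which acts on polyunsaturated chains, read 8.92, 8.76 and 8.42, against 8.36, 8.79 and 7.99, and overlapped. Elovl1, which makes very long saturated chains, read 9.91, 9.98 and 10.15, against 9.90, 10.14 and 9.86, the narrowest interval of the branch at -0.21 to 0.30.

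Desaturases had the highest step median of either branch among steps with more than 1 gene, at 0.96 over 4 genes, and the values within each pair of neighbouring paralogs were unequal. Scd1 read 9.96, 9.97 and 9.82 in HDAC3ΔIEC, against 7.33, 8.13 and 6.76 in HDAC3FF. It rose 5.71-fold, by 2.51 ± 0.31 (SE) on the log2 scale (limma adjusted p = 0.0276), the 10th largest rise of all genes, and its SD was 0.08 among HDAC3ΔIEC arrays, against 0.69 among HDAC3FF arrays. Scd2, a second stearoyl-CoA desaturase gene separated from Scd1 by 1 protein-coding gene, Scd4, on chromosome 19, read 10.83, 10.86 and 9.95, against 9.09, 9.87 and 9.06. Its lowest HDAC3ΔIEC value, on replicate 3, lay just above its highest HDAC3FF value, and the difference of 1.21 ± 0.31 (SE, 95% interval 0.49 to 1.92) did not pass (adjusted p = 0.164).

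Fads1 and Fads2, adjacent on chromosome 19, encode the front-end desaturases that act in turn in making arachidonic and docosahexaenoic acid. Fads1 read 7.31, 7.62 and 6.97 in HDAC3ΔIEC, against 6.69, 6.83 and 6.23 in HDAC3FF, without overlap (0.71 ± 0.21, SE, adjusted p = 0.227). Fads2 read 9.37, 9.32 and 8.90, against 9.33, 9.78 and 8.87, with overlap (-0.13 ± 0.23, adjusted p = 0.918). Within arrays, the Fads1 signal minus the Fads2 signal was 0.85 higher on average in HDAC3ΔIEC, with SDs of 0.18 in each group and no overlap, and Scd1 minus Scd2 was 1.31 higher, with SDs of 0.44 in HDAC3ΔIEC and 0.31 in HDAC3FF and no overlap. Acacb minus Acaca was 0.74 higher, Srebf2 minus Srebf1 0.16 higher and Elovl6 minus Elovl5 0.12 higher, all with overlap. These pairs were chosen after their values were seen and are given as a description.

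**Figure D2:**
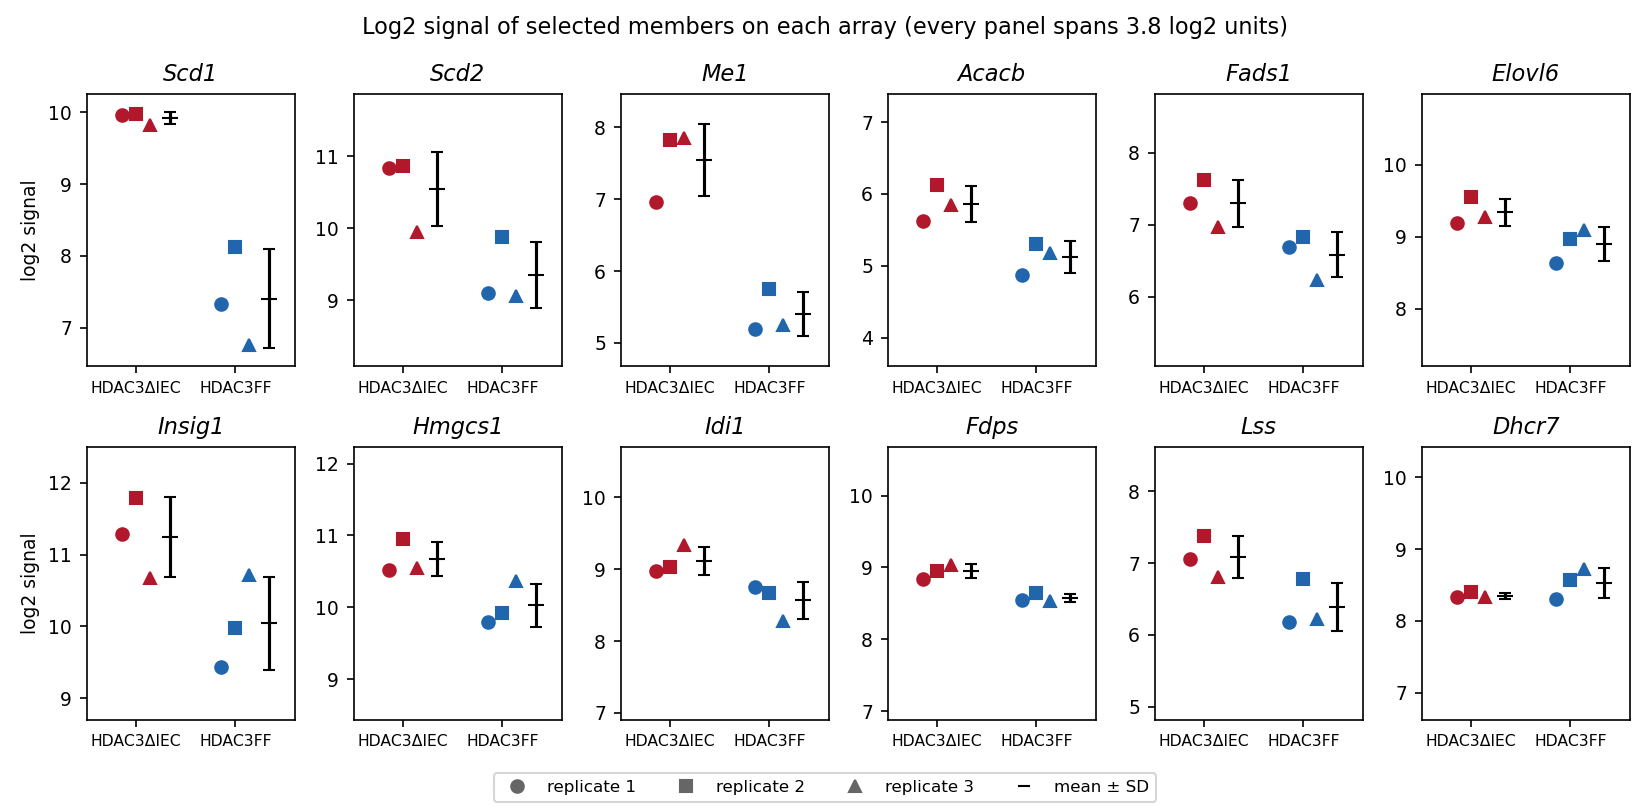
Log2 signal of 12 members on each array, HDAC3ΔIEC on the left and HDAC3FF on the right of each panel, with the mean and SD of 3 arrays beside the points. Each panel spans the same number of log2 units; Scd1 and Me1 show wide gaps between the groups, Insig1 and Dhcr7 overlap, and the other 8 show narrow gaps.

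None of the 20 sterol branch members passed limma's test, in either direction. At an unadjusted limma p under 0.05 there were 5, all higher in HDAC3ΔIEC, against 5.38% of all genes in that direction, and with ordinary unmoderated statistics, which called 0 of all 19533 genes, no branch member passed either. The fatty acid branch had 6 of 15 by the same unadjusted rule. Differences were positive for 16 of 20 sterol branch genes and 12 of 15 fatty acid branch genes, against 53.5% of all genes. The medians were close, at 0.26 and 0.31. The branches parted in their extremes: the largest sterol branch difference was 1.21, against 2.51 in the fatty acid branch.

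Of the sterol branch regulators, Insig1 had the largest difference of the branch but overlapping groups. Insig1, a sterol-sensing retention protein and itself a target of SREBPs, read 11.29, 11.79 and 10.68 in HDAC3ΔIEC, against 9.44, 9.97 and 10.72 in HDAC3FF. Replicate 3 of both groups decided the overlap, since the HDAC3FF value on it exceeded the HDAC3ΔIEC value. The difference of 1.21 ± 0.37 (SE, 95% interval 0.33 to 2.08) did not pass (adjusted p = 0.257). Srebf2, which encodes the main activator of cholesterol synthesis, read 9.18, 9.13 and 8.63, against 8.61, 8.85 and 8.84, and overlapped (0.21 ± 0.16, SE, adjusted p = 0.736).

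In the early steps, from acetyl-CoA to farnesyl diphosphate, none of the 6 measured genes passed. All 6 had positive differences, against 53.5% of all genes, with a median of 0.39. The groups did not overlap for 3, in the higher direction, against 8.45% of all genes. Hmgcs1, the cytosolic HMG-CoA synthase, read 10.52, 10.95 and 10.55 in HDAC3ΔIEC, against 9.79, 9.92 and 10.37 in HDAC3FF (0.65 ± 0.18, SE, adjusted p = 0.211). Idi1, the isopentenyl diphosphate isomerase, read 8.97, 9.04 and 9.34, against 8.76, 8.66 and 8.27 (0.55 ± 0.16, adjusted p = 0.220). Fdps, the farnesyl diphosphate synthase, read 8.84, 8.95 and 9.04, against 8.54, 8.64 and 8.54 (0.37 ± 0.09, adjusted p = 0.132). Each of these 3 lay higher on every HDAC3ΔIEC array than on any HDAC3FF array, by a small margin.

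The other early genes overlapped. The decarboxylase gene Mvd had a difference of 0.40 ± 0.19 (SE), Pmvk, the phosphomevalonate kinase, one of 0.28 ± 0.22, and Mvk, the mevalonate kinase, one of 0.08 ± 0.11. Pmvk differed among HDAC3FF arrays by more than between the groups, with 6.99, 7.23 and 7.85, against 7.69, 7.82 and 7.39 in HDAC3ΔIEC.

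Where 8.45% of all genes stood apart in the higher direction, 1 of 3 genes from squalene to lanosterol had groups that did not overlap. This was Lss, the lanosterol synthase that closes the sterol rings, at 7.06, 7.38 and 6.80 in HDAC3ΔIEC, against 6.19, 6.78 and 6.22 in HDAC3FF (0.69 ± 0.20, SE, adjusted p = 0.238). Fdft1, the squalene synthase, and Sqle, the squalene epoxidase, which is an oxygen-dependent control point, had differences of 0.16 ± 0.15 and 0.29 ± 0.16.

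The late steps, from lanosterol to cholesterol, had the lowest median of the enzyme steps of this branch, 0.09 over 8 genes. None of the 8 had groups that stood apart, against 16.2% of all genes that did in either direction. Tm7sf2, a sterol C14-reductase, had the largest difference, at 8.40, 8.56 and 7.86 in HDAC3ΔIEC, against 7.67, 8.02 and 7.82 in HDAC3FF (0.43 ± 0.19, SE, adjusted p = 0.455). Cyp51, the lanosterol demethylase, Msmo1, the methylsterol oxidase, Nsdhl, which removes the resulting carboxyl group, and Hsd17b7, a ketosteroid reductase, had differences of 0.09, 0.09, 0.31 and 0.25, all with intervals that include 0. The last enzymes of the route had negative differences: Ebp, a sterol isomerase, -0.19 ± 0.14 (SE), Sc5d, a sterol desaturase, -0.21 ± 0.13, and Dhcr7, which reduces 7-dehydrocholesterol, -0.18 ± 0.12. Dhcr7 read 8.33, 8.40 and 8.33, against 8.31, 8.58 and 8.72, so that the groups overlapped, and the 95% interval of its difference was -0.45 to 0.09. The late and early steps were not tested against each other. Stard4, a cytosolic sterol carrier, had a difference of -0.02 ± 0.11. Nsdhl and Ebp lie on the X chromosome. Both had their lowest HDAC3ΔIEC value, 8.87 and 8.33, on replicate 3, the array set apart by its sex-linked transcripts. That array was the lowest of its group for 14 of the 20 sterol branch genes, Nsdhl and Ebp among them. The part of X linkage in these values was not tested.

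Many members shared the order of the arrays within a group. HDAC3ΔIEC replicate 3 was the lowest of its group for 11 of 15 fatty acid branch genes and 14 of 20 sterol branch genes, against 32.6% of all genes, and replicate 2 was the lowest for none of the 35, against 33.7%. Among HDAC3FF arrays, replicate 2 was the highest for 13 of 15 fatty acid branch genes, against 33.2% of all genes, and the lowest for none of the 35. The branches differed in the other HDAC3FF arrays: replicate 3 was the lowest for 10 of 15 fatty acid branch genes, whereas replicate 1 was the lowest for 15 of 20 sterol branch genes. Averaged over the 15 genes and set against the HDAC3FF mean, the fatty acid branch stood at 0.61, 0.72 and 0.38 on the HDAC3ΔIEC arrays, against -0.07, 0.29 and -0.22 on the HDAC3FF arrays. The sterol branch stood at 0.28, 0.44 and 0.10, against -0.16, 0.09 and 0.07, so that HDAC3ΔIEC replicate 3 was level with the upper HDAC3FF arrays.

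**Figure D3:**
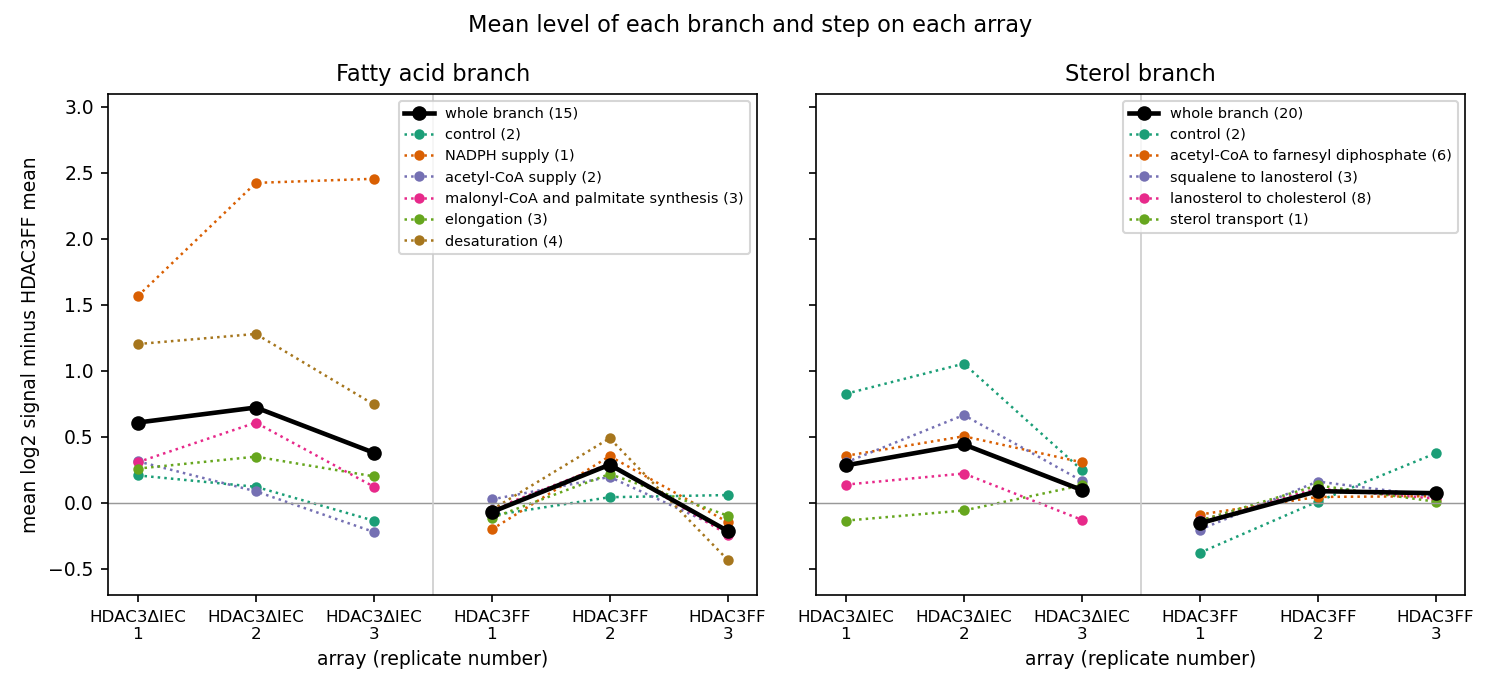
Mean log2 signal of each branch (black) and each step (colours, number of genes in brackets) on each array, as the difference from the HDAC3FF mean of the same genes; lines only join points of one group. The fatty acid branch lies between 0.38 and 0.72 on HDAC3ΔIEC arrays and the sterol branch between 0.10 and 0.44, with NADPH supply, which is Me1 alone, the highest step.

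Several results changed when arrays were left out, and each such fit had fewer arrays than the main one. Over all genes 13 to 430 passed limma with 1 array left out, against 137 in the main fit. Without HDAC3ΔIEC replicate 3, Scd1 had a difference of 2.56 and Me1 one of 1.99, both with an adjusted p of 0.0760, so that 0 members passed, while 29 genes passed over all. The branch medians were then 0.44 for the fatty acid and 0.37 for the sterol branch, the Insig1 groups no longer overlapped (1.49, adjusted p = 0.218), and the differences of Acaca, Fads2 and Elovl1, none of which passed, were 0.20, 0.02 and -0.02. Of the fits that left out 1 array, both genes passed without HDAC3FF replicate 2 or 3 and Me1 also without HDAC3ΔIEC replicate 1. The Scd1 difference lay between 2.19 and 2.87 in these fits and that of Me1 between 1.99 and 2.44. Without HDAC3FF replicate 3, Hmgcs1 passed (0.82, adjusted p = 0.0455) and the fatty acid branch median was 0.12. Leaving out HDAC3FF replicate 2 instead gave 0.47 for that median. For the sterol branch, the median came to 0.14 when HDAC3ΔIEC replicate 2 was left out and to 0.13 when HDAC3FF replicate 1 was. In an alternative added after seeing the data, replicate 3 of both groups was left out, and 744 genes passed limma over all. Scd2 (1.36, adjusted p = 0.0336) and Fads1 (0.70, 0.0446) then also passed. In the sterol branch Insig1 (1.83, 0.0145), Hmgcs1 (0.88, 0.0362) and Pmvk (0.65, 0.0430) did so. The arrays left out include both that made the Insig1 groups overlap, so these calls depend on that choice and are given as a description. The part of the sex-linked pattern of HDAC3ΔIEC replicate 3 in these values was not tested.

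Of the members, 4 had a second probe set naming the same gene, and they differed for Me1 and Idi1. The second Me1 probe set was dimmer, with 4.06, 5.60 and 4.97 in HDAC3ΔIEC, against 4.21, 4.69 and 3.90 in HDAC3FF, and its groups overlapped (0.61 ± 0.38, SE, limma adjusted p = 0.678 over all probe sets). With the mean of both probe sets Me1 had a difference of 1.38 and did not pass (adjusted p = 0.124). The second Idi1 probe set showed a larger difference than the first, at 8.26, 8.59 and 7.87 in HDAC3ΔIEC, against 7.03, 7.51 and 7.08 in HDAC3FF (1.04 ± 0.20, SE). With the mean of both, Idi1 passed (0.79, adjusted p = 0.0478). The second probe sets of Acaca and Fdft1 had differences of 0.14 ± 0.14 and 0.09 ± 0.24, against -0.01 ± 0.21 and 0.16 ± 0.15 for the first, all with overlapping groups. Which probe sets also detect related sequences was not tested.

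**Figure D4:**
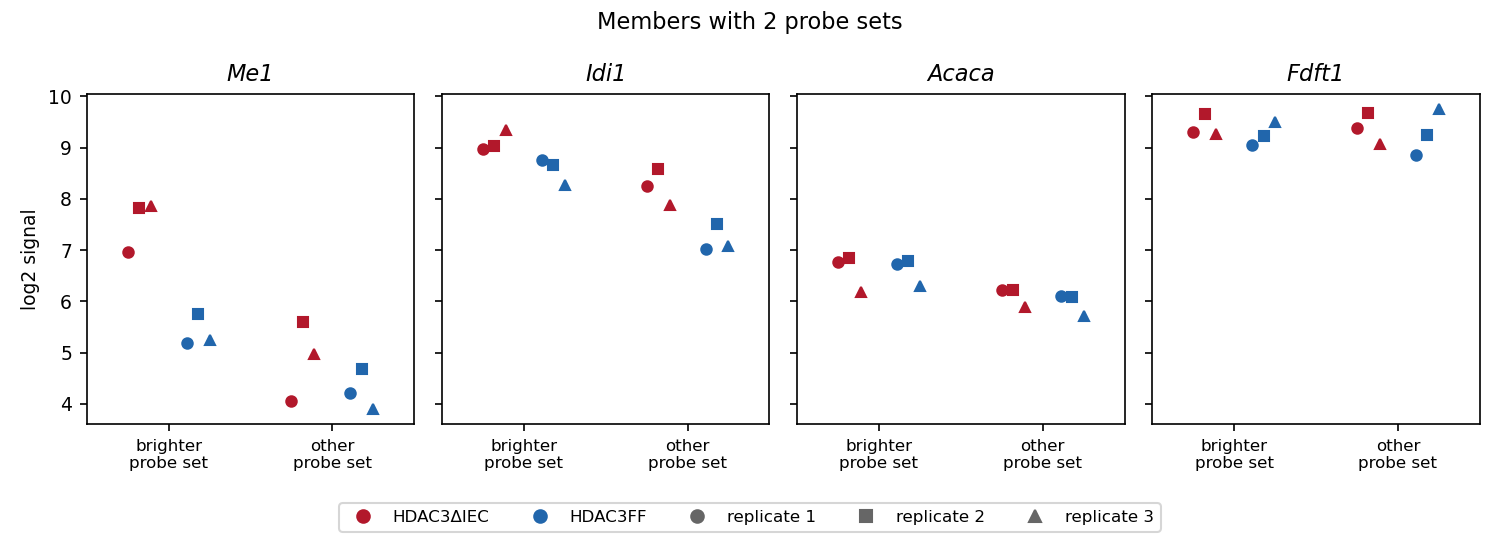
Log2 signal on each array of both probe sets of the 4 members that have 2, with HDAC3ΔIEC left of HDAC3FF for each probe set and one symbol per replicate number. The groups are apart for the brighter Me1 probe set and both Idi1 probe sets, and overlap for the others.

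Genes around the 2 branches were read from lists of neighbours in the pathway. Of 27 measured genes of fatty acid synthesis and activation, none passed in either direction, 4 had an unadjusted limma p under 0.05, a share near the 11.2% of all genes, and the median difference was 0.09. The smallest p belonged to Mid1ip1, an activator of acetyl-CoA carboxylase (0.53 ± 0.12, SE, adjusted p = 0.124), Oxsm, a mitochondrial fatty acid synthase component (0.50 ± 0.13, 0.181), and the acyl-CoA synthetase Acsl5 (-0.27 ± 0.08, 0.247). Of 15 measured genes of sterol and isoprenoid synthesis, transport and uptake, none passed in either direction, 2 had an unadjusted p under 0.05, likewise near 11.2%, and the median was -0.05. Stard5, a sterol carrier, had -0.40 ± 0.12, Npc1, which exports cholesterol from lysosomes, -0.62 ± 0.24, and Npc1l1, which takes up dietary sterol, 0.75 ± 0.35.

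Of 24 measured genes of SREBP processing and lipogenic control, Tbl1x rose, none fell and 23 did not pass, where 0.369% of all genes were called higher. At an unadjusted limma p under 0.05 there were 3, a share near the 11.2% of all genes, and the median difference was 0.03. Tbl1x, a subunit of the NCoR and SMRT complexes in which HDAC3 acts, read 9.02, 9.06 and 8.92 in HDAC3ΔIEC, against 8.29, 8.47 and 8.30 in HDAC3FF (0.65 ± 0.09, SE, adjusted p = 0.0355). Of the 6 fits that left out 1 array, it passed limma only in the one without HDAC3FF replicate 3, and without HDAC3ΔIEC replicate 3 its difference was 0.68. Tbl1x is X-linked. The other 2 with an unadjusted p under 0.05 did not pass. Their groups did not overlap, but picking by that p favours such genes. The 16.2% of all genes with groups apart in either direction is therefore not a like share. Tbl1xr1, which encodes a related subunit of the same complexes, had a difference larger than that of Tbl1x, 1.03 ± 0.21 (SE, adjusted p = 0.0966), and Nr1h3, which encodes the oxysterol receptor LXRα, an activator of Srebf1 transcription, one of -0.49 ± 0.12 (adjusted p = 0.165). The SREBP escort gene Scap (-0.00 ± 0.09, SE), Insig2 (-0.08 ± 0.13) and the site-1 protease gene Mbtps1 (-0.03 ± 0.12) had differences near 0. These 5 were named after their values were seen.

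Markers of other cells that could carry lipid synthesis transcripts into the samples did not pass in either direction. Of 10 measured adipocyte genes, 2 had an unadjusted limma p under 0.05, against 11.2% of all genes. The summed unlogged signal of the list was 704 to 959.6 on HDAC3ΔIEC arrays and 762 to 1235 on HDAC3FF arrays. The brightest were Cidec and Pck1, of which intestinal epithelium also expresses Pck1, with differences of 0.67 ± 0.41 (SE) and -0.95 ± 0.18. The second gene with an unadjusted p under 0.05 beside Pck1 was Lipe, the hormone-sensitive lipase gene, at -0.54 ± 0.09 (SE). Adipoq, Lep and Fabp4 had signals of at most 4.32 on every array, under the median of all genes. By mean signal over the 6 arrays, Retn, Plin4 and Lpl also lay under that median. Plin1 (52.4th percentile), Lipe (53.3rd), Pck1 (85.0th) and Cidec (86.0th) lay above it. Of 14 leukocyte, 11 fibroblast and muscle and 8 endothelial genes, none passed in either direction. An unadjusted limma p under 0.05 was seen for 2, 0 and 0, against 11.2% of all genes. The summed unlogged signals of the lists were 265 to 297, 368 to 411 and 159 to 166 in HDAC3ΔIEC, against 266 to 280.4, 351 to 428 and 157 to 172 in HDAC3FF. Their brightest members were Cd68 (0.51 ± 0.13, SE) and Cd3e (-0.22 ± 0.09), Tagln (0.27 ± 0.15) and Col1a1 (-0.06 ± 0.09), and Cldn5 (0.10 ± 0.09) and Vwf (0.04 ± 0.12). For the 12 epithelial genes the sums were 45960 to 50062 in HDAC3ΔIEC, against 41184 to 46196 in HDAC3FF, with Krt8 and Car1 (0.17 ± 0.08, SE) the brightest. The part of these cells in the members' values was not tested.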

How the data were processed

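RNA of live EpCAM+ cells from 6 germ-free mice was hybridised to 1 Affymetrix array each, per the labels' protocols. Per probe set and array the authors deposited 1 log2 signal, judged by its range. The submitters' processing notes name Affymetrix Power Tools; how it normalized the arrays is not given in the sources used here. No further normalization was applied. Of 24939 probe sets, 21105 name 1 gene in the platform annotation, 1254 several and 2580 none listed; 21022 of the 21105 were matched by Entrez number to the RefSeq table of GRCm38.p6. For 882 genes with several, the brightest was used, which gave 19533 genes.

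limma 3.58.1 in R 4.3.3 (lmFit, eBayes, two-sided, no covariate, 3.26 prior degrees of freedom) was fitted on all genes, with Benjamini-Hochberg adjustment over all of them and calls at an adjusted p under 0.05; SE and intervals are moderated. No p was taken over a list. The fit was checked on simulated data, with independent normal values and the same spread on every array. That check does not cover differences among arrays such as those described above. The labels call the mice biological replicates. The labels give both groups replicate numbers 1 to 3, but same-numbered arrays did not deviate together (r across genes -0.02, -0.07 and -0.20), so they were not treated as pairs. The members and lists were chosen with earlier results of these data known. By rule, the genes named are all members, Hdac3, Epcam, Vil1, the sex-linked genes, called neighbours or else the 3 with the smallest p, and the 2 brightest of each other marker list. Named outside this rule, after their values were seen, are Krt18, Krt19, Krt20, Slc26a3, Tbl1xr1, Nr1h3, Scap, Insig2, Mbtps1 and Lipe. The same holds for Adipoq, Lep, Fabp4, Plin1, Retn, Plin4 and Lpl of the adipocyte list. Alternatives are given under the dependence on processing. Figures were drawn with matplotlib 3.10.9 in Python 3.11.15.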

Additional observations from a re-analysis of the deposited data

How the results depend on the processing

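Of 595 values of the 35 members under the alternatives, 555 kept their direction and their side of the threshold. Another 21 changed sign, 12 lost and 7 gained a call. The 12 lost calls were all those of Scd1 and Me1, the only members with a call to lose. Several alternatives change only the test or the adjustment, so the differences under them could not change sign. The count of 555 is therefore no measure of how firm the calls were. The number of genes called over all was 137; it was 12 with the replicate block, 0 with ordinary unmoderated statistics, 357 with array weights, 90 with adjustment over all probe sets, 321 at an adjusted p under 0.10, 13 to 430 with 1 array left out and 744 without replicate 3 of both groups, an alternative added after seeing the data. The 2 fatty acid branch calls became 0 with the replicate block or unmoderated statistics, 1 with the mean of all probe sets, 0 to 2 with 1 array left out and 4 without replicate 3 of both groups. The 0 sterol branch calls became 1 with the mean of all probe sets, 0 to 1 with 1 array left out and 3 without replicate 3 of both groups. With the replicate block Scd1 and Me1 had an adjusted p of 0.0798 and 0.0740. The other lost calls of members were those with unmoderated statistics (adjusted p = 0.290 for both), with the mean of both Me1 probe sets, and with single arrays left out. Quantile normalization, median centring, an intensity trend, array weights and the filter on dim genes kept the calls of Scd1 and Me1. Tbl1x lost its call with the replicate block (adjusted p = 0.120), the intensity trend, unmoderated statistics and 5 of 6 single arrays left out. The branch medians lay between 0.12 and 0.47 (fatty acid) and 0.13 and 0.37 (sterol) with 1 array left out. Hdac3, at -0.86, passed at an adjusted p under 0.10. Sign changes occurred in 8 members, none of them called. Acaca read 0.0274 with array weights, 0.00734 with quantile normalization, 0.00894 with centring, 0.0657 with the mean of probe sets and 0.0504 without replicate 3 of both groups; Elovl1 read -0.00407 with array weights and -0.0750 without replicate 3 of both groups. With 1 array left out, the ranges were -0.16 to 0.20 for Acaca, -0.0228 to 0.13 for Elovl1, -0.0509 to 0.16 for Srebf1, -0.0461 to 0.16 for Mlxipl, -0.36 to 0.0919 for Fads2, -0.0219 to 0.13 for Mvk, -0.00899 to 0.26 for Cyp51 and -0.10 to 0.0432 for Stard4. The causes were not tested.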
